A study of Mus musculus with 12 samples.

Results

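The genes followed here are 9 genes that mark naive and stem-like T cells: Tcf7, Lef1, Satb1, Foxo1, Bach2, Klf2, Ccr7, S1pr1 and Il7r. They were taken by symbol from the 41457 genes of the deposited tables, by a rule that uses no measured value. The set itself was chosen with earlier results of these data known. All 9 passed the read filter of every comparison. The study measured poly(A) RNA of mouse CD4+ T cells that were cultured as T helper 1 (Th1), T helper 2 (Th2) or T helper 17 (Th17) cells. One parental strain, C57BL/6, gave all cells, which carried either the NFATc1/ΔS allele, in which the series title places a loss of SUMOylation of the transcription factor NFATc1, or the wild-type (WT) gene. RNA was taken at day 3.5 and at day 2.5, and each combination of the 3 cell types, 2 genotypes and 2 days is 1 library, so that there are 12 libraries, 4 of each cell type. All cells were spleen and lymph node CD4+ T cells isolated with a kit and stimulated with antibodies to CD3 and CD28. Th1 cultures received IL-12 and an antibody to IL-4. Th2 cultures received IL-4 and an antibody to IFN-γ, and Th17 cultures received TGFβ, IL-6 and antibodies to both IFN-γ and IL-4. Th1 and Th2 cells were kept in RPMI with 0.5 µg/ml of anti-CD3, and Th17 cells in IMDM with 0.25 µg/ml, so the cytokines cannot be told apart from the medium and the anti-CD3 dose in any comparison with Th17. Whether each library had its own animal or culture is not stated in the labels, and the p-values below therefore measure the spread among these libraries only. In bulk RNA, fewer cells that express a gene and less RNA per cell cannot be told apart.

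Naive T cells circulate between blood and lymph nodes, and a network of transcription factors keeps them quiescent and able to renew. TCF1 and LEF1, the products of Tcf7 and Lef1, bind the same DNA letters and keep T cells stem-like, and FOXO1 maintains the genes for KLF2, CCR7 and the interleukin-7 receptor. KLF2 in turn maintains S1pr1. Stimulation through the T cell receptor lowers many of these genes as cells become effectors.

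The libraries held 13417121 to 17774400 gene reads each, and the 9 genes drew between 93 reads (Klf2) and 25620 reads (Satb1) in a library. Values are given as CPM, library-size-scaled counts with TMM factors, and a call is a Benjamini-Hochberg adjusted p under 0.05 in edgeR's quasi-likelihood test over all genes. A log2 fold change is given with its standard error (SE). The lineage markers fitted the labels. The summed Th1 markers (Tbx21, Ifng, Il12rb2, Fasl and Cxcr3) were 437 to 569 CPM in Th1 libraries, 43.4 to 93.4 CPM in Th2 libraries and 98.1 to 191 CPM in Th17 libraries. The summed T cell markers were 3326 to 4286 CPM across the 12 libraries. Reads per gene do not show the NFATc1 sites that the mutation alters, so the genotype labels could not be checked. Both Th1 libraries of day 2.5 stood apart: the WT one correlated across genes at r = 0.963 to 0.978 with the Th17 libraries and at 0.954 to 0.956 with the other Th1 libraries, and the NFATc1/ΔS one at 0.927 to 0.955 with the other Th1 libraries. The Th1 libraries of day 3.5 correlated at 0.991 with each other. Cell type results are therefore given with and without both Th1 libraries of day 2.5, and day and genotype results with and without the 4 Th1 libraries.

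Promoter letters are shown for some of the genes called below: Foxo1 (Th1 against Th2), Klf2 (day in Th2 against Th17) and Il7r (genotype in Th2 and Th17). They are also shown for the Tcf7 start that holds a FOXO site letter for letter. Each sequence is the sense strand, 5′ to 3′, from 250 bases before to 50 bases after an annotated start, from RefSeq on GRCm38.p6, with the motif letters found in capitals. They are Klf2 at chr8:72318812-72319111 (plus strand), Il7r at chr15:9529827-9530126 (minus strand), Foxo1 at chr3:52268087-52268386 (plus strand) and Tcf7 at chr11:52282546-52282845 (minus strand).
Klf2: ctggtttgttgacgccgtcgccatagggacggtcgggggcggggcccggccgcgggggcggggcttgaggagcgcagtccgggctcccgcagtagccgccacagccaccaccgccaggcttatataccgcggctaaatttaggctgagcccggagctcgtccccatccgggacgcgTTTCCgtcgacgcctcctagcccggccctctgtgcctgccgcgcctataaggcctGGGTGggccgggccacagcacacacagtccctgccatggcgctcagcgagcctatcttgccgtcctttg
Il7r: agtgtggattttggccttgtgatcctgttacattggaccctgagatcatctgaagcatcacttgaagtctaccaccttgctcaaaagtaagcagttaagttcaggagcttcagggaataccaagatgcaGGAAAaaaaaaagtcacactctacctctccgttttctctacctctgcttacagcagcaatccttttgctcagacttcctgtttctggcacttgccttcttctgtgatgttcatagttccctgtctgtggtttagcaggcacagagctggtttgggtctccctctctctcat
Foxo1: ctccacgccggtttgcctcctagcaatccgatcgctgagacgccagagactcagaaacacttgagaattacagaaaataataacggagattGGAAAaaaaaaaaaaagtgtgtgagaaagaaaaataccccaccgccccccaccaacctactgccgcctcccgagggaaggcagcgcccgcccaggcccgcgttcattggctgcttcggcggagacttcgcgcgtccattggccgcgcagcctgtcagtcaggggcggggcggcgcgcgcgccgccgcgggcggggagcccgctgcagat
Tcf7: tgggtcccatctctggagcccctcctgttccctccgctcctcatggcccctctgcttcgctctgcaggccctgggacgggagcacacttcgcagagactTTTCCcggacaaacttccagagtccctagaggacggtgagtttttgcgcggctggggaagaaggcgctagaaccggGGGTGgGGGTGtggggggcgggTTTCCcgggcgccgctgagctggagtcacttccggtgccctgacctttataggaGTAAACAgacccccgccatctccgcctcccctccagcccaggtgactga
The motifs searched, on both strands, were ATCAAAG (TCF/LEF), GTAAACA (FOXO), GGAAA (the core letters of NFAT sites), CACCC (the core letters of KLF sites) and TGAGTCA (AP-1 and BACH core), and none of these is contained in another. The tables held promoters for 7 of the 9 genes, 15 promoters in all. Klf2 holds the NFAT letters (as TTTCC) at -74 and the KLF letters (as GGGTG) at -19, counted from the start site. Il7r and Foxo1 hold the NFAT letters at -121 and -159. The Tcf7 start holds the FOXO letters at 1, the NFAT letters at -151 and -53 and the KLF letters at -75 and -69. Of all 32851 promoters of this length, 61.3% hold the NFAT letters and 57.5% the KLF letters, so those matches are common, whereas 3.65% hold the FOXO letters, 3.73% the TCF/LEF letters and 5.20% the AP-1 and BACH letters. The TCF/LEF and AP-1 or BACH letters were in none of the 15 promoters, and the FOXO letters in 1. A match describes letters and not a bound site.

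Levels of different genes were compared per length, as TPM, a length-scaled unit, computed from the deposited exon reads and exon lengths. That length is given per gene and not per transcript, and the order of the genes depends on it. It was 19027 bases with 38 exons for Satb1, against 1978 bases with 3 exons for Ccr7. Ccr7, the chemokine receptor that leads T cells into lymph nodes, was highest, with a median of 740 TPM (range 330 to 1184 over the 12 libraries). Tcf7 followed with 287 TPM (224 to 560), and Satb1, a chromatin organizer, with 181 TPM (134 to 247). Lef1 had a median of 66.3 TPM (37.7 to 81.6), Il7r 60.4 TPM (36.0 to 131) and Foxo1 52.9 TPM (29.0 to 106). S1pr1, the receptor through which T cells leave lymph nodes, had 33.6 TPM (11.9 to 59.2), and Bach2 and Klf2 each had 26.2 TPM (18.7 to 34.7 and 9.21 to 41.6). The ranges of neighbours in this order overlapped, except that every Satb1 value lay above every Lef1 value. The highest library exceeded the lowest 4.97-fold for S1pr1 and 4.52-fold for Klf2, but 1.85-fold for Satb1 and for Bach2.

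**Figure D1:**
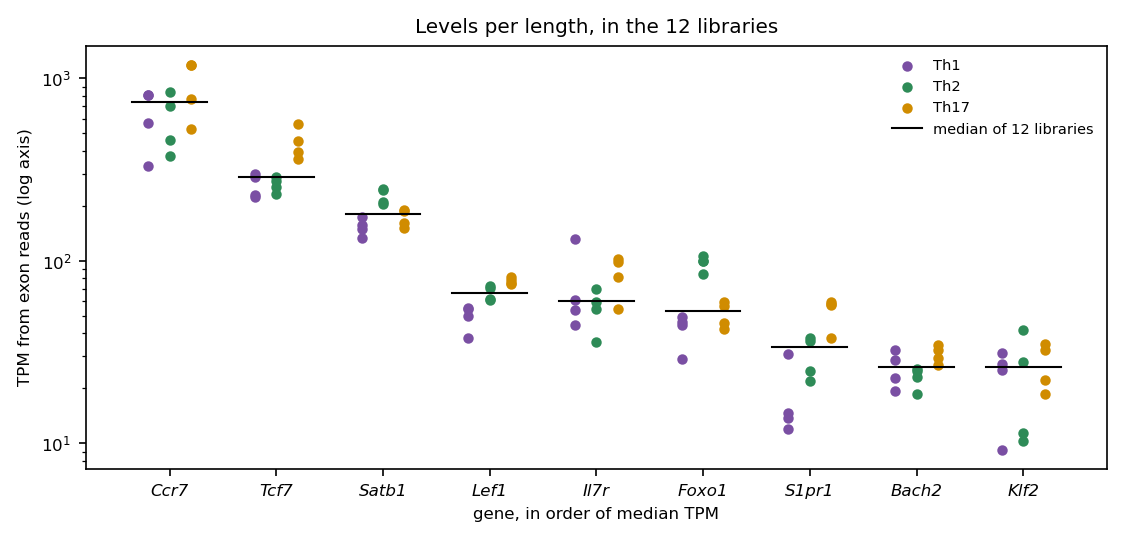
Level of each of the 9 genes per deposited exon length (TPM, log axis) in the 12 libraries, ordered by the median. Ccr7 has the highest median (740 TPM), and Bach2 and Klf2 have the lowest (26.2 TPM each).

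Not all reads of these genes were unique, and some of the genes overlap others. Between 17.2% and 21.1% of the Tcf7 reads of a library were unique. Tcf7 (ENSMUSG00000000782, chromosome 11, 52252371 to 52283014, minus strand) overlaps the same-strand lincRNA Gm26551 and the antisense gene A630014C17Rik. Over the 12 libraries Tcf7 had 53894 reads, against 980 for Gm26551 and 1561 for A630014C17Rik. Its unique exon reads, 10355 in all, were exon-exon reads. Whether reads were counted by strand is not given in the sources used here, and where the other reads of Tcf7 also map was not tested, so Tcf7 values are uncertain. Unique reads were 64.9% to 77.1% for Bach2, 84.7% to 90.2% for Lef1, 91.9% to 96.6% for Foxo1 and 95.5% to 96.5% for Satb1, and 100% in Klf2 and S1pr1. On GRCm38 the other genes lie on chromosome 3 (Lef1, ENSMUSG00000027985, 131110471 to 131224356, plus strand; Foxo1, ENSMUSG00000044167, 52268336 to 52353221, plus; S1pr1, ENSMUSG00000045092, 115710433 to 115715072, minus) and chromosome 11 (Ccr7, ENSMUSG00000037944, 99144196 to 99155077, minus). Bach2 (ENSMUSG00000040270) lies on chromosome 4 from 32238804 to 32586108 on the plus strand, and Klf2 (ENSMUSG00000055148) on chromosome 8 from 72319033 to 72321656 on the plus strand. Il7r (ENSMUSG00000003882) lies on chromosome 15 from 9505788 to 9530176 and Satb1 (ENSMUSG00000023927) on chromosome 17 from 51736187 to 51833290, both on the minus strand. All 9 are annotated as protein coding, and each value is over the whole gene.

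The first question is how the set differed between the 3 cell types. Th1 cells had less Lef1, S1pr1, Satb1 and Foxo1 than Th2 cells, and less Tcf7, Lef1 and S1pr1 than Th17 cells. Th2 cells had less Tcf7 but more Satb1 and Foxo1 than Th17 cells. In no comparison of Th1 cells over all 12 libraries was a gene of the set called higher. Of the 9 genes 4 were called between Th1 and Th2, all lower, where 28.6% of all 12797 genes tested were called (14.6% higher and 14% lower), and the median log2 fold change of the 9 was -0.19 against 0.07 over all genes. Between Th1 and Th17, 3 were called lower, against 4.77% of all genes (1.95% higher and 2.83% lower), and between Th2 and Th17, 2 were higher and 1 lower, against 12% (6.36% higher and 5.67% lower). The ranges of the 4 libraries did not overlap for 3 of the 9 genes in each comparison, against 32.5% of all genes for Th1 and Th2, 14.4% for Th1 and Th17 and 23.9% for Th2 and Th17.

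**Figure D2:**
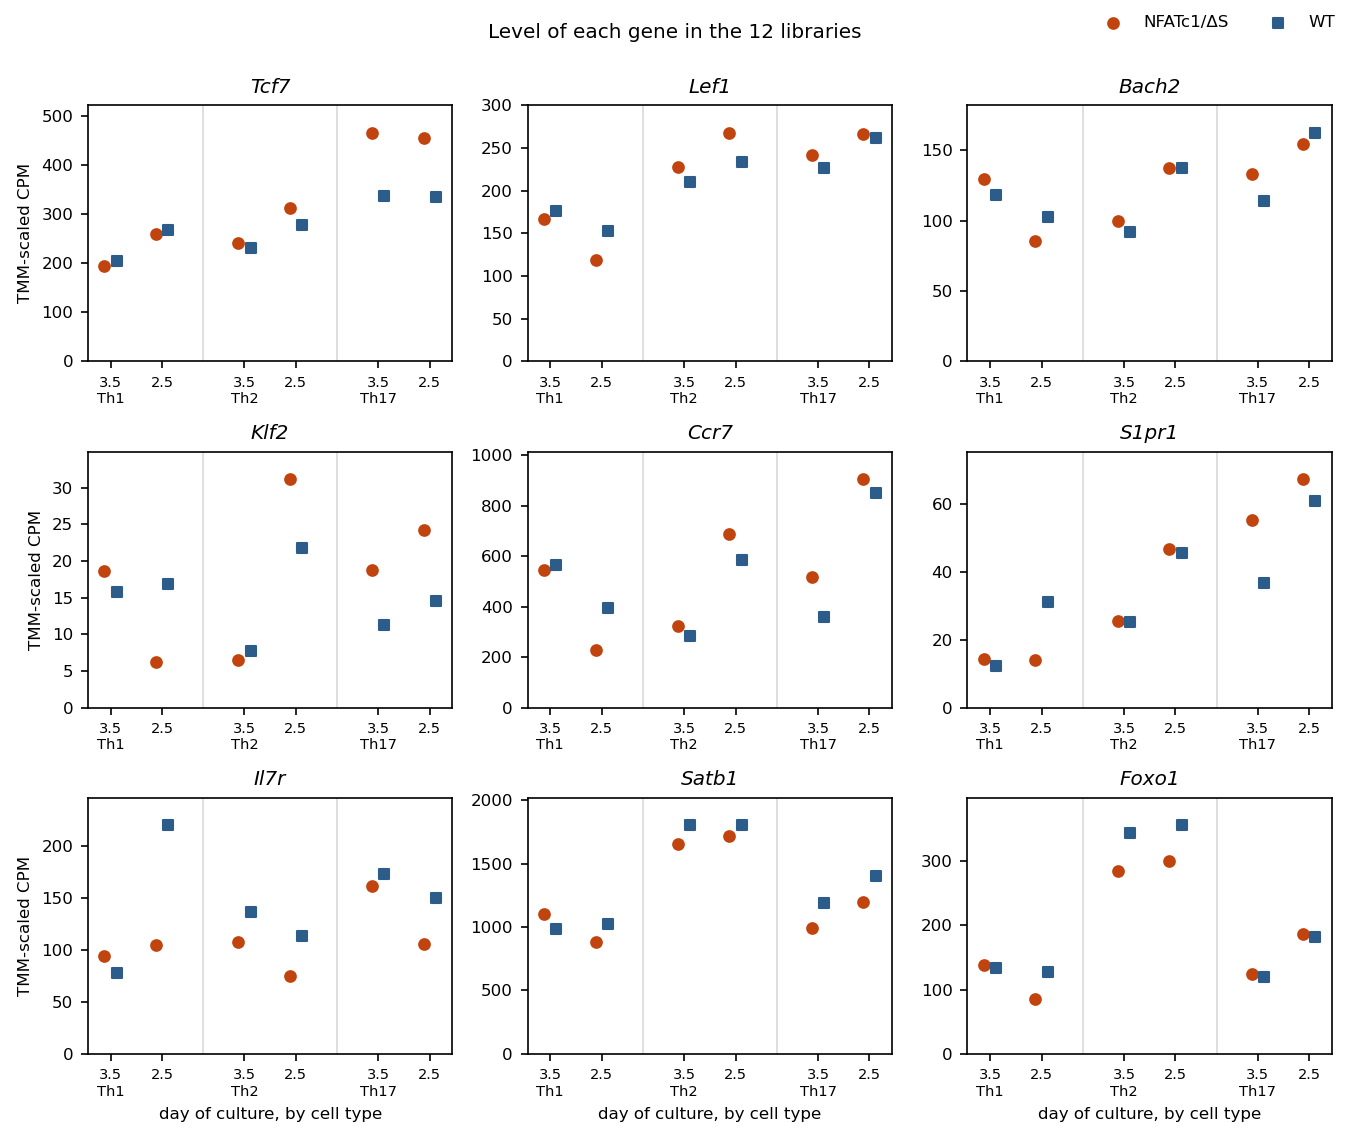
CPM of each of the 9 genes in every library, by cell type, with NFATc1/ΔS as circles and WT as squares and day 3.5 left of day 2.5. Foxo1 is highest in all 4 Th2 libraries (284 to 356 CPM), and Tcf7 in all 4 Th17 libraries (335 to 466 CPM).

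TCF1 and LEF1 are partners in one DNA-binding family. Tcf7 in Th1 libraries was 194 CPM at day 3.5 and 260.4 CPM at day 2.5 in NFATc1/ΔS cells, against 205 and 268 CPM in WT cells. Tcf7 in Th2 libraries was 241 CPM at day 3.5 and 313 CPM at day 2.5 in NFATc1/ΔS cells, against 230.3 and 278 CPM in WT cells. In Th17 libraries Tcf7 was 466 CPM at day 3.5 and 455 CPM at day 2.5 in NFATc1/ΔS cells, against 337 and 335 CPM in WT cells. All 4 Th17 libraries lay above every Th1 and every Th2 library, as the highest Th1 and Th2 values were 268 and 313 CPM and the lowest Th17 value was 335 CPM. Th1 cells had less Tcf7 than Th17 cells (log2 fold change -0.78 ± 0.14; adjusted p = 0.0192), as did Th2 cells (-0.59 ± 0.14; adjusted p = 0.0257), and the Th1 and Th2 values overlapped (-0.19 ± 0.14; adjusted p = 0.309). The call against Th17 was lost in Th1 when the Th1 WT day 3.5 library or any Th17 library but the WT one of day 2.5 was left out (adjusted p = 0.053 to 0.0662), and in Th2 when any Th2 or Th17 library but the Th17 WT one of day 2.5 was left out (0.0674 to 0.106), each time with the same sign. Lef1 in Th1 libraries was 166 CPM at day 3.5 and 119 CPM at day 2.5 in NFATc1/ΔS cells, against 176 and 152 CPM in WT cells. Lef1 in Th2 libraries was 228 CPM at day 3.5 and 268 CPM at day 2.5 in NFATc1/ΔS cells, against 210.1 and 234 CPM in WT cells, and in Th17 libraries it was 241 CPM at day 3.5 and 266 CPM at day 2.5 in NFATc1/ΔS cells, against 227 and 261 CPM in WT cells. Each Th1 library was below all 8 others, in which Lef1 ranged from 210.1 to 268 CPM. Th1 had less Lef1 than Th2 (log2 fold change -0.61 ± 0.14; adjusted p = 0.014) and than Th17 (-0.70 ± 0.14; adjusted p = 0.0304), and Th2 against Th17 gave -0.08 ± 0.14 (adjusted p = 0.779). The call for Lef1 between Th1 and Th17 was lost without the Th1 NFATc1/ΔS day 3.5, the Th1 WT day 2.5 or any of the Th17 libraries (adjusted p = 0.053 to 0.112), and none of these omissions changed its direction.

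SATB1 folds chromatin around T cell genes, and FOXO1 is a transcription factor that the PI3K and AKT pathway excludes from the nucleus. Satb1 in Th1 libraries was 1105 CPM at day 3.5 and 883 CPM at day 2.5 in NFATc1/ΔS cells, against 985 and 1022 CPM in WT cells. Satb1 in Th2 libraries was 1654 CPM at day 3.5 and 1716 CPM at day 2.5 in NFATc1/ΔS cells, against 1799.9 and 1801 CPM in WT cells. In Th17 libraries it was 988 CPM at day 3.5 and 1196 CPM at day 2.5 in NFATc1/ΔS cells, against 1188 and 1399 CPM in WT cells. The 4 Th2 libraries lay above all others, while the Th1 and Th17 ranges overlapped. Satb1 was lower in Th1 than in Th2 cells (log2 fold change -0.80 ± 0.12; adjusted p = 0.00152) and higher in Th2 than in Th17 cells (0.55 ± 0.12; adjusted p = 0.0156), and Th1 against Th17 gave -0.25 ± 0.12 (adjusted p = 0.22). The call between Th2 and Th17 was lost without the Th2 NFATc1/ΔS library of either day, the Th2 WT day 3.5 library or the Th17 library of either genotype at day 3.5 (adjusted p = 0.0522 to 0.0711). Foxo1 had the largest difference among the 9 genes between Th1 and Th2. Foxo1 in Th1 libraries was 139 CPM at day 3.5 and 85.8 CPM at day 2.5 in NFATc1/ΔS cells, against 134 and 128 CPM in WT cells. Foxo1 in Th2 libraries was 284 CPM at day 3.5 and 301 CPM at day 2.5 in NFATc1/ΔS cells, against 344 and 356 CPM in WT cells. In Th17 libraries it was 125 CPM at day 3.5 and 186 CPM at day 2.5 in NFATc1/ΔS cells, against 119 and 183 CPM in WT cells. The Th1 libraries reached at most 138.5 CPM, and the Th2 libraries, from 284 to 356 CPM, were again above all others. Foxo1 fell to 0.380-fold in Th1 relative to Th2 cells (log2 fold change -1.40 ± 0.20; adjusted p = 0.00155), was higher in Th2 than in Th17 cells (1.07 ± 0.20; adjusted p = 0.00994), and Th1 against Th17 gave -0.33 ± 0.20 (adjusted p = 0.336). These Foxo1 calls held in all 8 omissions of a library.

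S1pr1 and Ccr7 carry signals for leaving and entering lymph nodes. S1pr1 in Th1 libraries was 14.2 CPM at day 3.5 and 14.1 CPM at day 2.5 in NFATc1/ΔS cells, against 12.1 and 31.0 CPM in WT cells. S1pr1 in Th2 libraries was 25.5 CPM at day 3.5 and 46.6 CPM at day 2.5 in NFATc1/ΔS cells, against 25.2 and 45.6 CPM in WT cells, and in Th17 libraries it was 55.1 CPM at day 3.5 and 67.2 CPM at day 2.5 in NFATc1/ΔS cells, against 36.7 and 60.8 CPM in WT cells. All 4 Th17 libraries were above all 4 Th1 libraries, and only the Th1 WT library of day 2.5 reached the Th2 range. Th1 cells had less S1pr1 than Th2 cells (log2 fold change -1.02 ± 0.21; adjusted p = 0.0078) and than Th17 cells (-1.68 ± 0.21; adjusted p = 0.00565), while Th2 against Th17 gave -0.65 ± 0.20 (adjusted p = 0.0756). Ccr7 in Th1 libraries was 546 CPM at day 3.5 and 227 CPM at day 2.5 in NFATc1/ΔS cells, against 566 and 395 CPM in WT cells. Ccr7 in Th2 libraries was 323 CPM at day 3.5 and 687 CPM at day 2.5 in NFATc1/ΔS cells, against 283 and 585 CPM in WT cells, and in Th17 libraries it was 518 CPM at day 3.5 and 906 CPM at day 2.5 in NFATc1/ΔS cells, against 360.1 and 850.3 CPM in WT cells. The 3 cell types overlapped, with the lowest value in a Th1 library of day 2.5 and the highest values in Th17 libraries of day 2.5. No difference between cell types was called (0.03 for Th1 against Th2, -0.46 for Th1 against Th17 and -0.49 for Th2 against Th17).

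Il7r encodes the receptor chain for interleukin-7, a survival signal for resting T cells. Il7r in Th1 libraries was 94.0 CPM at day 3.5 and 104 CPM at day 2.5 in NFATc1/ΔS cells, against 78.1 and 219.9 CPM in WT cells. Il7r in Th2 libraries was 107 CPM at day 3.5 and 74.7 CPM at day 2.5 in NFATc1/ΔS cells, against 137 and 114 CPM in WT cells, and in Th17 libraries it was 162 CPM at day 3.5 and 105 CPM at day 2.5 in NFATc1/ΔS cells, against 173 and 149.7 CPM in WT cells. The Th1 WT library of day 2.5 was the highest of all 12. BACH2 holds back effector genes. Bach2 in Th1 libraries was 129.7 CPM at day 3.5 and 85.1 CPM at day 2.5 in NFATc1/ΔS cells, against 118 and 103 CPM in WT cells. Bach2 in Th2 libraries was 99.8 CPM at day 3.5 and 137 CPM at day 2.5 in NFATc1/ΔS cells, against 91.8 and 137 CPM in WT cells, and in Th17 libraries it was 133 CPM at day 3.5 and 155 CPM at day 2.5 in NFATc1/ΔS cells, against 114 and 162 CPM in WT cells. Klf2, a transcription factor of quiescent T cells, had in Th1 libraries 18.7 CPM at day 3.5 and 6.15 CPM at day 2.5 in NFATc1/ΔS cells, against 15.8 and 16.8 CPM in WT cells. Klf2 in Th2 was 6.47 CPM at day 3.5 and 31.2 CPM at day 2.5 in NFATc1/ΔS cells, against 7.73 and 21.8 CPM in WT cells, and in Th17 it was 18.8 CPM at day 3.5 and 24.2 CPM at day 2.5 in NFATc1/ΔS cells, against 11.2 and 14.5 CPM in WT cells. None of these 3 genes was called between cell types over 12 libraries, and their ranges overlapped in every comparison. The log2 fold changes of Th1 against Th2 were 0.16 for Il7r, -0.07 for Bach2 and -0.00 for Klf2.

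Leaving out both Th1 libraries of day 2.5 leaves Th1 cells at day 3.5 alone, so the Th1 results of this fit are tied to that day. In it, Th1 cells had more Bach2 and Ccr7 and less Lef1, S1pr1, Il7r, Satb1 and Foxo1 than Th2 cells. That is 7 of the 9 genes, against 46.5% of all genes tested in that fit (23.9% higher and 22.6% lower). Bach2 gave 0.33 ± 0.08 (adjusted p = 0.00461) and Ccr7 0.87 ± 0.11 (adjusted p = 9.66e-05). Lef1 gave -0.36 ± 0.08 (adjusted p = 0.00287), S1pr1 -1.06 ± 0.15 (adjusted p = 0.000384) and Il7r -0.50 ± 0.11 (adjusted p = 0.00475). Satb1 gave -0.67 ± 0.11 (adjusted p = 0.000491) and Foxo1 -1.07 ± 0.16 (adjusted p = 0.00108). The signs of Bach2 and Il7r thus turned from those over 12 libraries, which were -0.07 and 0.16 and were not called. Between Th1 and Th17, 5 were called against 30.4% of all genes (14.9% higher and 15.5% lower): Tcf7 (-0.91), Lef1 (-0.45), S1pr1 (-1.71) and Il7r (-0.95) lower and Ccr7 (0.37) higher, where Ccr7 over 12 libraries was -0.46. Between Th2 and Th17, 7 were called against 41.2% (20.1% higher and 21.1% lower): Tcf7, Bach2 (-0.29 ± 0.06; adjusted p = 0.00264), Ccr7 (-0.50 ± 0.08; adjusted p = 0.000873), S1pr1 (-0.65 ± 0.10; adjusted p = 0.000859) and Il7r (-0.45 ± 0.09; adjusted p = 0.00196) lower and Satb1 and Foxo1 higher. The same genes were called without the 4 Th1 libraries, against 41.5% of all genes. At day 3.5 alone, Klf2 was also called between Th1 and Th2 (1.24 ± 0.22; adjusted p = 0.00234), as 1 of 8 genes against 47.9%. At day 2.5 Ccr7 was 227 and 395 CPM in Th1 libraries (NFATc1/ΔS, then WT), against 687 and 585 CPM in Th2 libraries. Bach2 was also lower and Il7r higher in Th1 at day 2.5. These directions are opposite to those of day 3.5, while Lef1, S1pr1, Satb1 and Foxo1 were lower in Th1 on both days.

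**Figure D3:**
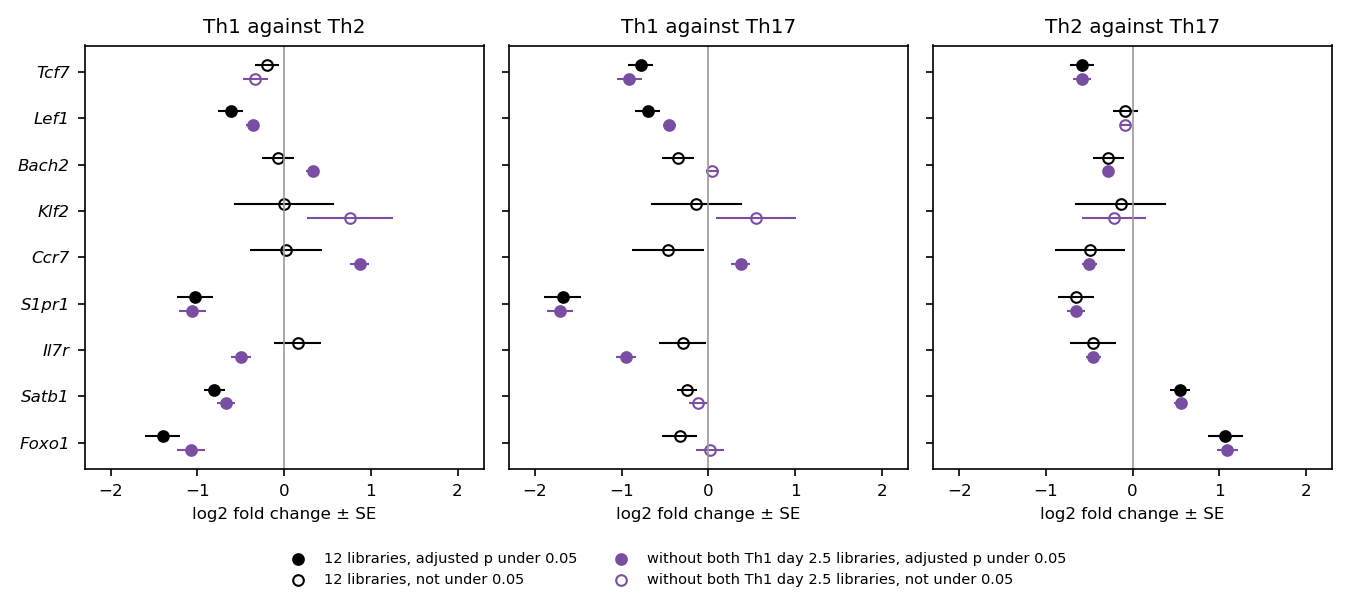
Log2 fold change (± SE) of the 9 genes for Th1 against Th2, Th1 against Th17 and Th2 against Th17, with all 12 libraries in black and without both Th1 libraries of day 2.5 in purple, filled where the adjusted p was under 0.05. Between Th1 and Th2, Bach2 is -0.07 over 12 libraries and 0.33 in the second fit, and Ccr7 is 0.03 and 0.87, and Foxo1 stays lowest (-1.40 and -1.07).

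Genes of related pathways moved unevenly between the cell types, and their counts for Th1 against Th2 stand against 14.6% of all genes called higher and 14% called lower. In Th1 relative to Th2 cells, 8 of 30 other naive and memory T cell genes rose and 10 fell, with a median log2 fold change of -0.06 against 0.07 over all genes; Pecam1 fell by 1.67 and Tgfbr2 fell by 1.28, whereas Itga4 and Tcf12 rose by 1.84 and 0.86. Of 16 genes of interleukin-7 receptor signalling none rose and 7 fell, with a median of -0.52, among them Stat5a (-1.30), the shared receptor chain gene Il2rg (-0.95), Mcl1 (-0.80) and Gfi1 (-0.69). Of 16 partners and antagonists of BACH2, 2 rose and 5 fell, with a median of -0.49, including the AP-1 partner Batf (-2.99) and Maf (-3.48). Th2 against Th17, with 6.36% of all genes called higher and 5.67% lower, gave 5 higher and 0 lower in interleukin-7 receptor signalling and 4 higher and 1 lower in the BACH2 list, where Prdm1, which encodes the repressor BLIMP1, was 1.52 higher on the log2 scale. Of 25 genes of the FOXO family, its regulators and known targets, 2 rose and 6 fell in Th1 relative to Th2 (median -0.17), including Irs2 (-1.20) and Ccnd2 (-0.76), and of 26 TCF1 and LEF1 partners and Wnt signalling genes 2 were higher and 6 lower (median -0.20), including Tle1 (-1.54). Of 13 KLF genes 2 were higher and 4 lower (median -0.34). Of 21 genes of lymph node entry and egress, 6 were higher and 5 lower, and Cd69, whose product retains cells by binding S1PR1, rose by 1.89. Without both Th1 libraries of day 2.5, where 23.9% of all genes were called higher and 22.6% lower, the interleukin-7 list had 1 higher and 8 lower, the naive and memory list 12 and 11, and the FOXO list 7 and 7. Summed B cell markers were 4.64 to 8.97 CPM in Th1, 39.5 to 56.0 CPM in Th2 and 15.03 to 32.8 CPM in Th17 libraries, and summed dendritic cell markers 6.80 to 33.5, 92.5 to 137 and 24.2 to 68.3 CPM. The dendritic cell sum in Th2 was mostly Cd83 (44.1 to 70.0 CPM) and Ccl22 (16.1 to 55.9 CPM). Itgax and Flt3 were also highest in Th2, at up to 4.46 and 3.16 CPM. Clec9a and Siglech were at 0 CPM in Th2, and Fscn1 overlapped between the cell types. The B cell receptor chain gene Cd79a was 0.327 to 1.40 CPM in Th1 and 3.27 to 5.88 CPM in Th2 libraries. All 8 B cell markers tested were called lower in Th1 than in Th2 cells, and their part in the differences was not tested.

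The next question is how the set moved with time. Over all 6 pairs of libraries no gene of the set was called, and no gene among 12329 was called with edgeR, although 1333 had an unadjusted p under 0.05. DESeq2 called 143 genes, among them S1pr1, and limma-voom 0. In both Th1 pairs Lef1, Bach2, Ccr7 and Foxo1 were higher and Il7r lower at day 3.5, opposite in sign to the 4 Th2 and Th17 pairs, while Tcf7 was lower in both Th1 pairs and Klf2, S1pr1 and Satb1 differed in sign between them. Within Th2 and Th17 cells, 6 of the 9 genes were called, 5 lower and 1 higher at day 3.5 than at day 2.5, against 40.5% of 12415 genes tested (20.8% higher and 19.7% lower). The median log2 fold change of the 9 was -0.325, against 0.03 over all genes.

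Ccr7 had the largest change called in the fit of Th2 and Th17 cells together. In Th2 cells it was 323 CPM at day 3.5 and 687 CPM at day 2.5 in NFATc1/ΔS libraries, and in WT libraries 283 and 585 CPM. In Th17 cells the values were 518 and 906 CPM in NFATc1/ΔS libraries and 360.1 and 850.3 CPM in WT libraries. All 4 libraries of day 3.5 lay below all 4 of day 2.5. Ccr7 fell to between 0.424-fold and 0.571-fold in the 4 pairs (log2 fold change -1.04 ± 0.08; adjusted p = 1.47e-05). In the Th1 pairs it was higher at day 3.5, 2.40-fold in NFATc1/ΔS and 1.43-fold in WT cells. The day effects of the 3 cell types differed for Ccr7 (adjusted p = 0.0256), with 0.89 in Th1, -1.07 in Th2 and -1.02 in Th17 cells, where 5.01% of all genes were called. That call was lost when any 1 of the 8 Th2 or Th17 libraries was left out (adjusted p up to 0.148).

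S1pr1, the egress receptor, was lower at day 3.5 in all 4 pairs of Th2 and Th17 cells, at 0.547-fold to 0.819-fold (log2 fold change -0.67 ± 0.10; adjusted p = 0.000566). Bach2 was also lower in all 4 pairs, at 0.668-fold to 0.862-fold (-0.44 ± 0.07; adjusted p = 0.00104), and Foxo1 at 0.652-fold to 0.966-fold (-0.33 ± 0.11; adjusted p = 0.0346). Lef1 fell by 0.18 on the log2 scale (SE 0.06; adjusted p = 0.0354), a call lost without any 1 of the 4 pairs (adjusted p = 0.0517 to 0.125), and the Foxo1 call was lost without the Th17 NFATc1/ΔS pair (0.136) or the Th17 WT pair (0.11). Il7r went the other way: it was higher at day 3.5 in 4 of 4 pairs, at 1.15-fold to 1.54-fold (0.40 ± 0.08; adjusted p = 0.00262). Tcf7 was higher at day 3.5 in 2 pairs and lower in 2 (-0.15 ± 0.08; adjusted p = 0.169), and Satb1 was lower in 4 of 4 pairs without a call (-0.14 ± 0.07; adjusted p = 0.145).

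Klf2 moved by different amounts in Th2 and in Th17 cells. In Th2 cells it was 6.47 CPM at day 3.5 and 31.2 CPM at day 2.5 in NFATc1/ΔS libraries, and 7.73 and 21.8 CPM in WT libraries. In Th17 cells it was 18.8 and 24.2 CPM in NFATc1/ΔS libraries and 11.2 and 14.5 CPM in WT libraries. The Th2 values of day 3.5 were the lowest of these 8. Its log2 day differences in the pairs were -2.27 and -1.49 in Th2 cells (NFATc1/ΔS, then WT) and -0.36 and -0.37 in Th17 cells. Over both cell types the change was not called by edgeR (-1.07 ± 0.40; adjusted p = 0.112), although 4 of 9 alternatives called it, among them DESeq2 (0.0357), limma-voom (0.0127) and the fit with no read filter (9.57e-20). It differed between them, by -1.51 ± 0.23 on the log2 scale in Th2 minus Th17 cells (adjusted p = 0.00537), where 1.55% of all genes were called (0.95% higher and 0.604% lower). That call held in all 8 omissions of a library, with differences from -1.90 to -1.13. Each omission left the cell type of the omitted library with no residual degrees of freedom, so the spread came from the other cell type alone. Foxo1 was the other gene called, with a smaller fall in Th2 than in Th17 cells (difference 0.53 ± 0.11; adjusted p = 0.0281), a call lost without any 1 of the 4 Th2 libraries or without the Th17 WT library of day 2.5 (adjusted p = 0.0825 to 0.14). Klf2 had 93 to 421 reads in these libraries.

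**Figure D4:**
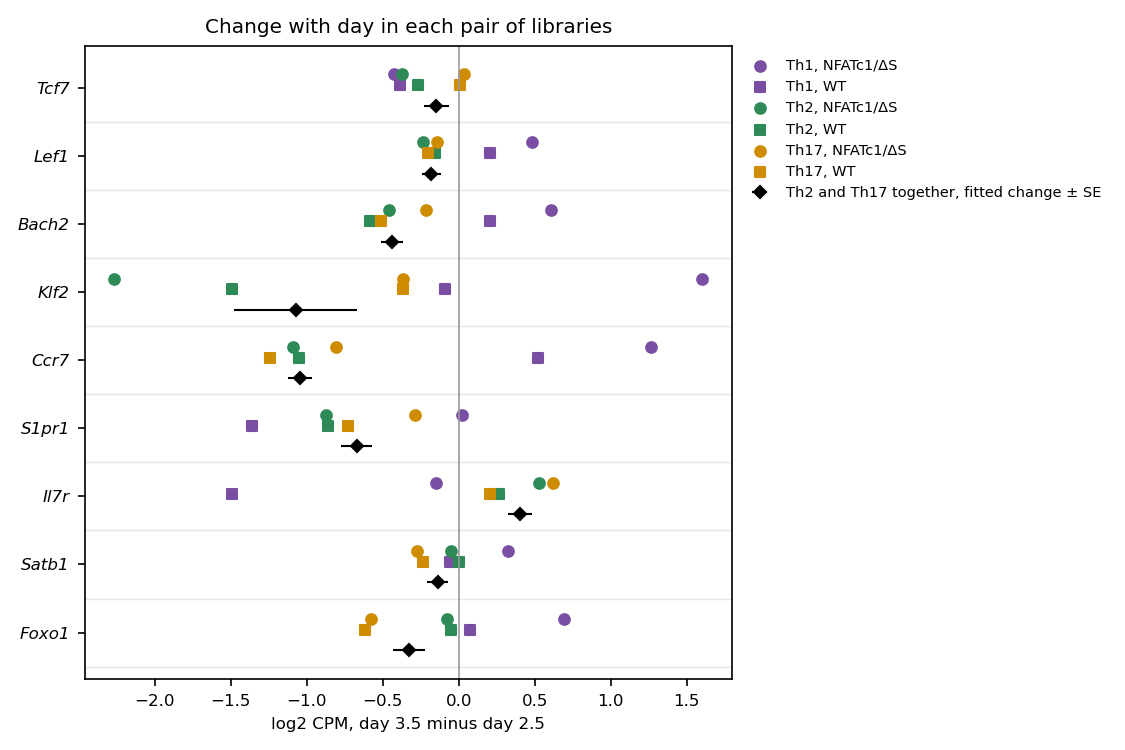
Log2 difference in CPM, day 3.5 minus day 2.5, of the 9 genes in each of the 6 pairs, with the fitted change in Th2 and Th17 cells (± SE) as a black diamond. Ccr7 is below 0 in the 4 Th2 and Th17 pairs and above 0 in the 2 Th1 pairs, and Klf2 is lowest in the Th2 pairs (-2.27 and -1.49).

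With the Th1 libraries left out, the day change was also fitted within each cell type, in a fit added after the data were seen. In Th2 cells 6 genes were called, against 29.7% of all genes (14.3% higher and 15.4% lower): Klf2 (-1.88 ± 0.17; adjusted p = 1.1e-05), Ccr7 (-1.07 ± 0.11; adjusted p = 1.54e-05), S1pr1 (-0.86 ± 0.11; adjusted p = 0.000142), Bach2 (-0.52 ± 0.09; adjusted p = 0.00105) and Tcf7 (-0.32 ± 0.08; adjusted p = 0.0101) lower and Il7r (0.40 ± 0.11; adjusted p = 0.0168) higher. In Th17 cells 5 were called, against 34.3% (17.1% higher and 17.2% lower): Ccr7 (-1.02 ± 0.10; adjusted p = 2.05e-05), Foxo1 (-0.60 ± 0.08; adjusted p = 0.000103), S1pr1 (-0.50 ± 0.11; adjusted p = 0.00296) and Bach2 (-0.36 ± 0.09; adjusted p = 0.00748) lower and Il7r (0.41 ± 0.11; adjusted p = 0.0104) higher. In the model of all 12 libraries no gene of the set was called in a cell type by edgeR, where 5.36% of all genes were called in Th1 (2.69% higher and 2.67% lower) and none in Th2 or Th17 cells. There 2349 and 2737 genes had an unadjusted p under 0.05 in Th2 and Th17, and DESeq2 called Klf2 and Ccr7 in Th2, Ccr7 and Foxo1 in Th17 and Ccr7 in Th1.

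Related genes also moved between days in Th2 and Th17 cells, where 20.8% of all genes were called higher and 19.7% lower. Of the 30 other naive and memory T cell genes, 4 rose and 13 fell at day 3.5, with a median log2 fold change of -0.25 against 0.03 over all genes, and Cxcr4 (-1.01), the chemokine receptor that retains cells in bone marrow, Gpr183 (-0.87) and Foxp1 (-0.77), a quiescence factor, were among those that fell. Of 25 genes of the FOXO family, its regulators and targets, 6 rose and 14 fell (median -0.28), among them the cell cycle inhibitor gene Cdkn1b (-0.78) and Ccng2 (-0.76). None of the 13 KLF genes rose and 4 fell, including Klf3 (-1.02), and of 21 lymph node genes 4 rose and 10 fell (median -0.37). Interleukin-7 receptor signalling had 3 higher and 7 lower genes (median -0.12), with Socs2 (1.24) and Socs3 (-1.11), both feedback inhibitors of cytokine signalling, moving in opposite directions. Of the BACH2 list 2 rose and 6 fell, and of 26 Wnt genes 2 rose and 6 fell. Of 20 activated and dividing T cell genes 8 rose and 5 fell, including the cyclin gene Ccnb1 (0.65), Mki67 (0.67) and Egr2 (1.05). Summed dendritic cell markers in Th17 cells were 24.2 and 26.2 CPM at day 3.5 against 61.2 and 68.3 CPM at day 2.5. Both erythroid markers tested fell (median -3.06), as did 3 of 6 CD8 T and NK cell markers, and the part of any of these in the day changes was not tested.

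Intron reads, the share of a gene's reads that lie in introns, were described for each gene, since they can come from RNA that is not yet spliced. The share for Ccr7 in Th2 cells at day 3.5 was 8.97% (8.16 to 9.83) in NFATc1/ΔS and 4.62% (3.99 to 5.31) in WT cells, with 95% exact Clopper-Pearson intervals in parentheses that cover counting error only. At day 2.5 it was 2.37% (2.07 to 2.70) in NFATc1/ΔS and 2.75% (2.40 to 3.14) in WT cells. In Th17 cells it was 10.3% and 9.09% at day 3.5 (NFATc1/ΔS, then WT) against 4.93% and 5.99% at day 2.5. The Ccr7 intron share was thus higher at day 3.5 in those 4 pairs, where its CPM was lower. The intron share of the whole library was also higher at day 3.5 in 3 of these pairs, at 3.98% against 2.32% in Th2 NFATc1/ΔS, 2.93% against 2.28% in Th2 WT and 4.16% against 2.89% in Th17 NFATc1/ΔS cells, but not in Th17 WT cells (3.28% against 3.43%), and its part in the Ccr7 shares was not tested. Satb1 in Th17 cells went the other way, with 6.37% (6.03 to 6.73) in NFATc1/ΔS and 4.94% (4.62 to 5.28) in WT cells at day 3.5. Its shares at day 2.5 were 11.6% (11.1 to 12.1) in NFATc1/ΔS and 11.8% (11.4 to 12.3) in WT cells. Bach2 had the largest intron shares, 20.6% to 30.8% of its reads. Intron reads of all genes were 2.28% to 4.34% of a library. No test was run on these shares.

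The last question is whether the NFATc1/ΔS allele changed the set. Il7r and Satb1 were lower and Tcf7, Lef1, Ccr7 and S1pr1 were higher in NFATc1/ΔS than in WT cells in each of the 4 pairs of Th2 and Th17 libraries, but Il7r alone passed the test. Some of these differences were small, such as 0.02 and 0.03 on the log2 scale for S1pr1 in Th2 cells. The share of all genes with the same sign in these 4 pairs was not counted, so no result is read from the shared signs. Over all 6 pairs, no gene of the set and no gene among 12329 was called with edgeR, with 716 at an unadjusted p under 0.05. DESeq2 called 21 genes and limma-voom 1, and none of them belonged to the set. In Th2 and Th17 cells, Il7r was 1 of 9 genes called, against 2.13% of all 12415 genes tested (0.749% higher and 1.38% lower). The median of the 9 was 0.11, against -0.00 over all genes.

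Il7r in Th2 cells had 107 CPM (day 3.5) and 74.7 CPM (day 2.5) in NFATc1/ΔS libraries, against 137 and 114 CPM in WT libraries, and in Th17 cells 162 and 105 CPM against 173 and 149.7 CPM. The NFATc1/ΔS library was the lower one in 4 of 4 pairs, with the smallest gap in Th17 cells at day 3.5. The fitted log2 fold change was -0.38 ± 0.08 (adjusted p = 0.0219). That call was lost without the Th2 day 2.5 pair (0.134), the Th2 day 3.5 pair (0.0657) or the Th17 day 2.5 pair (0.094), and Il7r was also lower in the Th1 pair of day 2.5 (log2 difference -1.07) but not in that of day 3.5 (0.27). Tcf7 in Th17 cells was 466 and 455 CPM in NFATc1/ΔS libraries, against 337 and 335 CPM in WT libraries. Those Th17 libraries did not overlap between the genotypes, while the Th2 pairs differed by 0.07 and 0.17 on the log2 scale. Over both cell types Tcf7 gave 0.29 ± 0.07 (adjusted p = 0.0558), short of the threshold, and it was called with DESeq2 (0.024), with unique reads alone (0.021) and with exon reads alone (0.0352). Over all alternatives other than omitted pairs its adjusted p ranged from 0.00133 to 1. Without the Th2 day 3.5 pair Tcf7 (0.0269) and Klf2 (0.00344) were called, and without the Th17 day 2.5 pair Ccr7 was (0.0359). The other genes gave Ccr7 (0.26 ± 0.07; adjusted p = 0.0946), Klf2 (0.50 ± 0.14; adjusted p = 0.122) and S1pr1 (0.20 ± 0.09; adjusted p = 0.334) above 0 and Satb1 (-0.17 ± 0.07; adjusted p = 0.3) below 0, and Lef1, Bach2 and Foxo1 at 0.11, 0.07 and -0.11, none of them called.

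**Figure D5:**
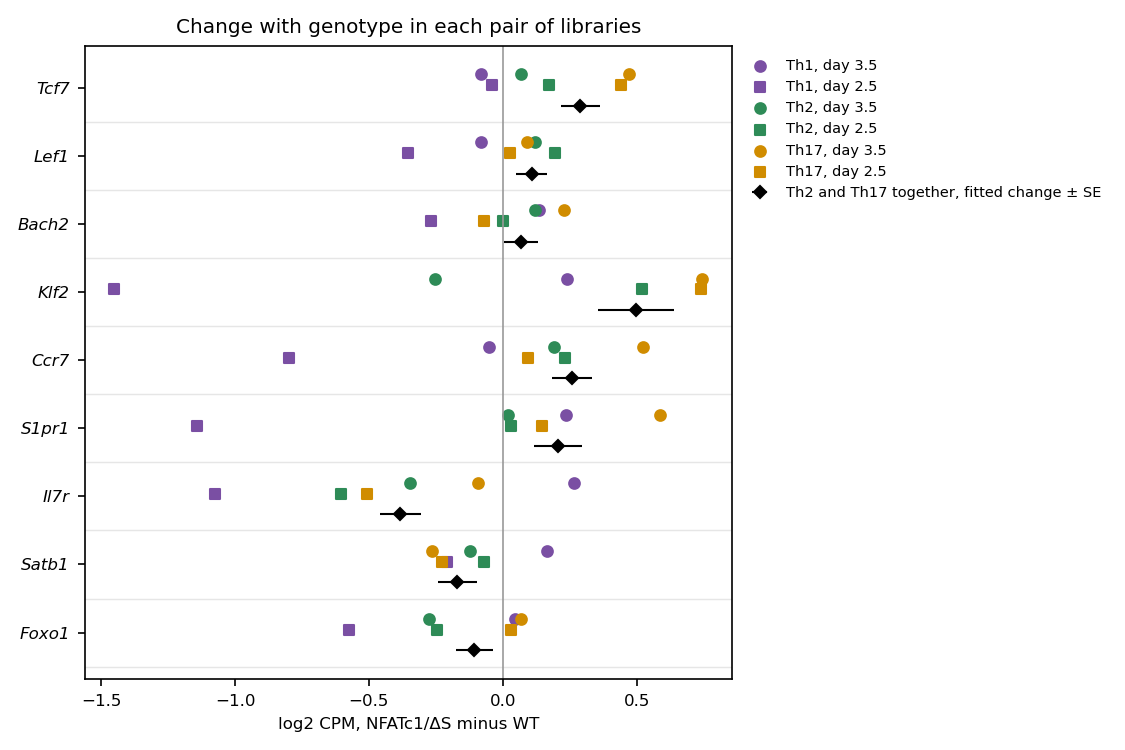
Log2 difference in CPM, NFATc1/ΔS minus WT, of the 9 genes in each of the 6 pairs, with the fitted change in Th2 and Th17 cells (± SE) as a black diamond. Il7r is below 0 in all 4 Th2 and Th17 pairs (fitted -0.38), and the Th1 pair of day 2.5 lies lowest of the 6 for Klf2, S1pr1, Ccr7, Il7r, Lef1, Foxo1 and Bach2.

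Within Th17 cells, fitted without the Th1 libraries, 2 of the genes were called higher in NFATc1/ΔS cells, against 1.79% of all genes (0.741% higher): Tcf7 (0.46 ± 0.08; adjusted p = 0.00942) and Klf2 (0.74 ± 0.16; adjusted p = 0.0321). Within Th2 cells none was called, against 1.03% of all genes, and Il7r gave -0.47 ± 0.11 (adjusted p = 0.0712). This fit without the Th1 libraries was added after the data were seen. In the model of all 12 libraries edgeR called no gene, of the set or outside it, for genotype within Th2 or within Th17 cells. The genotype effect itself was not called different between Th2 and Th17 cells for any gene of the set, against 0.298% of all genes (0.0725% higher and 0.226% lower), with Tcf7 at -0.33 ± 0.12 (adjusted p = 0.538) and Klf2 at -0.51 on the log2 scale. With all 12 libraries, edgeR called no gene for different genotype effects in the 3 cell types (301 at an unadjusted p under 0.05) or for a genotype effect that differed by day (325), and DESeq2 called 1 gene in each and limma-voom 0.

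Of the 30 other naive and memory T cell genes, 5 were higher and 0 lower in NFATc1/ΔS than in WT Th2 and Th17 cells, against 0.749% and 1.38% of all genes, with a median log2 fold change of 0.16 against -0.00 over all genes. That list, like the others, was chosen with earlier results of these data known. Slamf6, a receptor of stem-like T cells, rose most (1.09 ± 0.10; adjusted p = 1.45e-05). Nsg2 (0.37) and the integrin chain gene Itga4 (0.53) were others. Of the activated and dividing genes 1 was higher and 4 lower, among them Id2 (-0.34) and Slc7a5 (-0.30), and of the BACH2 list 2 were lower, Maf (-0.98) and Batf (-0.27). In Wnt signalling, FOXO, KLF, interleukin-7 receptor and SATB1 lists, edgeR called none. Summed CD8 T cell and NK cell markers in Th2 cells were 76.7 and 97.6 CPM in NFATc1/ΔS libraries, against 214 and 218 CPM in WT libraries, and Gzma was called lower (-1.48 ± 0.20; adjusted p = 0.0391) while Cd8b1 gave -0.00. The Th2 sum was mostly Gzma, at 49.8 to 183 CPM, while Cd8a was 5.27 to 8.22 CPM. No change in the share of CD8 T or NK cells is therefore read from this sum. The part of these markers in the genotype results was not tested.

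Genes with the most similar pattern over the 12 libraries were ranked by the root mean square difference of centred log2 CPM, among 10236 genes of mean log2 CPM of at least 1. For Lef1 the nearest were Irak2 (0.08), Hs6st1 (0.10) and Mfge8 (0.11), and for Bach2 they were Kdm3a (0.09), Crtc3 (0.10) and Uhrf2 (0.10). For Satb1 they were Snapc1 (0.09), Ranbp9 (0.10) and Emsy (0.10), and for Foxo1 Dhrs1 (0.14), Armcx3 (0.15) and Tgoln1 (0.15). Ccr7 lay nearest to Kdm7a (0.17), Hscb (0.18) and Atp7a (0.18), and Tcf7 to Sirt2 (0.20), Mpc1 (0.21) and Trpc4ap (0.21). S1pr1 lay nearest to Tmem8b (0.26), Dirc2 (0.26) and Txnip (0.31), Il7r to S100a11 (0.25), Rell1 (0.26) and Klf8 (0.26), and Klf2 to Kcnk7 (0.34), Hscb (0.37) and Usp3 (0.37). The closest match of Klf2 was more distant than that of any other gene of the set.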

How the data were processed

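Poly(A) RNA was measured in 12 libraries, 1 per combination of cell type, genotype and day. The authors deposited raw counts of reads per gene, with exon, unique and intron reads and exon lengths in the same tables, per the file headers, on GRCm38, per the submitters' processing notes. The aligner is not given in the sources used here. The 9 genes and the other lists were chosen with earlier results of these data known. All 9 genes were named in every comparison, with up to 4 genes of smallest unadjusted p from each other list, and for each of the 9 the 3 genes of most similar pattern. Counts were tested with edgeR 4.0.16 (quasi-likelihood, robust, TMM, filterByExpr with a minimum count of 10 and a minimum total of 15) in R 4.3.3, with Benjamini-Hochberg adjustment at 0.05 over all genes passing the filter. The other factors served as blocks, and the fit was tested on simulated data. Each SE was derived from the log2 fold change and the F statistic. CPM is scaled by TMM, and a pair difference is the log2 of the ratio of the CPM of both libraries, with no prior count. The ranking of similar patterns uses log2 CPM with a prior count of 2. TPM was computed from the deposited exon reads and exon lengths, where deposited TPM had been planned. Alternatives were DESeq2 1.42.0, limma-voom 3.58.1, other scaling, read types, filters and libraries left out. Some of them were added after the data were seen. These are the cell type fits without both Th1 libraries of day 2.5 and without the 4 Th1 libraries. They also include the day and genotype fits within Th2 and within Th17 cells without the 4 Th1 libraries. The day and genotype fits of Th2 and Th17 cells together were planned, but with earlier results known. They leave out Th1 because an earlier account of these data had found a Th1 library that stands apart. The labels number no replicates, so libraries were paired by design factors and not by replicate. Precision is limited by depth for Klf2, which had as few as 93 reads in a library.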

Additional observations from a re-analysis of the deposited data

Results flagged for a closer look

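In the 18 groups of 6 pairs examined for a pair far from the others, chance alone marks about 1 in 20 groups, and 2 were found. The S1pr1 difference of NFATc1/ΔS minus WT in the Th1 pair of day 2.5 was -1.14 on the log2 scale, far below the other 5 pairs, which ranged up to 0.59. The Il7r difference of day 3.5 minus day 2.5 in the Th1 WT pair was -1.49, far below the other 5. Both pairs hold a Th1 library of day 2.5.

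The day change was called different between cell types in 3 genes. Klf2 fell more in Th2 than in Th17 cells (adjusted p = 0.00537 for the difference, edgeR), Foxo1 fell less in Th2 than in Th17 cells (adjusted p = 0.0281), and Ccr7 differed over the 3 cell types (adjusted p = 0.0256). The Klf2 call held in all 8 omissions of a library and the Foxo1 call in 3 of them. Omitting any 1 Th2 or Th17 library lost the Ccr7 call. Between Th2 and Th17 alone, the Ccr7 difference was -0.05 (adjusted p = 0.944, edgeR).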

How the results depend on the processing

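Of 2430 values of the 9 genes under alternatives, 2278 kept their direction and 152 changed sign. No call changed sign under an alternative. Over 12 libraries, Th1 against Th2 gave -0.07 for Bach2, 0.16 for Il7r and -0.00 for Klf2, none of them called. Th1 against Th17 gave -0.46 for Ccr7, also not called. Alternatives called these with the other sign. Bach2 was 0.33 without both Th1 libraries of day 2.5 and 0.34 at day 3.5 alone, and Il7r -0.50 and -0.53. Klf2 was 1.24 at day 3.5 alone, and Ccr7 0.37 without both Th1 libraries of day 2.5. In these fits Th1 cells were represented at day 3.5 alone, and the cause was not tested. The counts of genes of the set that were called moved as follows. Without both Th1 libraries of day 2.5 they were 7 in place of 4 for Th1 against Th2, 5 in place of 3 for Th1 against Th17 and 7 in place of 3 for Th2 against Th17, which was also 7 without the 4 Th1 libraries and at day 3.5 alone, where Th1 against Th2 gave 8. Over all genes these fits called 6235 and 6309 in place of 3656 (Th1 against Th2), 4082 and 3886 in place of 611 (Th1 against Th17, with 1651 by DESeq2) and 5518, 5152 and 4191 in place of 1539 (Th2 against Th17). Without the 4 Th1 libraries, the day counts were 6 of the set over all pairs, 6 in Th2 and 5 in Th17, and the genotype counts 1 over all pairs and 2 in Th17, each in place of 0. DESeq2 called 1 for day over all pairs and in Th1, 2 in Th2 and in Th17, each in place of 0, and 4 in place of 1 for day effects across cell types. For genotype in Th2 and Th17, in place of 1, DESeq2 called 3, unique reads 2, exon reads 2 and no read filter 4, and 630 in place of 264 genes over all. Without the replicate block (blocks of cell type by genotype or by day) the counts were 2 in place of 6 for day and 0 in place of 1 for genotype, and over all genes 1961 in place of 5022 and 1 in place of 264. No paired analysis by replicate number was possible because the labels give no replicate numbers. With 1 library or pair left out, the counts ranged from 1 to 3 for Th1 against Th17 and Th2 against Th17, 0 to 1 for day over all pairs, 0 to 2 for genotype in Th2 and Th17, 0 to 6 for day in Th1 and in Th2, 0 to 5 in Th17, 0 to 9 for day effects across cell types, 0 to 6 for genotype in Th1, 0 to 2 in Th17, 0 to 7 for genotype effects across cell types and 1 to 2 for the day effect in Th2 minus Th17. The within-cell-type ranges came from omitting a Th1 library, after which Th1 kept no residual degrees of freedom and the spread came from Th2 and Th17. In the fit of Th2 minus Th17, each omission likewise left the cell type of the omitted library with no residual degrees of freedom. Klf2 rests on the fewest reads.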
